A study of Polistes fuscatus with 17 samples.

Results

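The results concern 200 contigs, assembled stretches of transcript, whose level differed most between brains of wasps that belonged to the same experimental group. Polistes fuscatus is a paper wasp in which overwintered foundresses start nests in spring and their daughters work on the nests in summer, and it is known for telling nestmates apart by their faces. Each library was 1 brain of 1 adult female, so a contig's level is an average over all neurons and glia of that brain and differs between wasps as well as between treatments. In such a library fewer cells of a type and less RNA per cell cannot be told apart. Counts were scaled to CPM, the count divided by the total of its library and multiplied by 1000000. A contig was a candidate if its mean over 16 wasps was at least 32 CPM and it was not among the 100 most abundant, which left 5814 of 157691 contigs. The mean of each group was subtracted from log2(CPM + 1), and the 200 candidates with the largest SD of what remained were kept, 3.44% of the candidates. The contigs were thus chosen by their measured spread inside groups, and that spread is described without a test.

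The 17 wasps fell into 4 groups, all trained in a T-maze with negative reinforcement over 40 trials. Faces were the stimulus for 5 foundresses, F25, F29, F35, F42 and F55, all caught in May. Simple patterns were the stimulus for 4 foundresses, F17 and F3 from May and F34 and F52 from June. The 8 workers were trained to faces after at least a week as adults on a nest in which they had not been born, 4 on a nest of their own species (conspecific; FW10, FW25 and FW28 in July, FW47 in August) and 4 on a nest of Polistes metricus (allospecific; FW11 and FW24 in July, FW32 and FW44 in August). Caste, season, age and rearing differ together between foundresses and workers and cannot be told apart. The month stands for collection only, and the colony of birth is not given in the labels. Total counts ran from 7.69 M in F3 to 20.4 M in F29. F17 stood apart. In this wasp 26.8% of the other 5614 candidates were over 2-fold from the mean of its group. In each of the other 16 wasps the share was 0 to 1.07%. The rule left these 5614 for their smaller spread over the 16 wasps and did not use F17, which lowers the share in the 16. The library scaling factor of F17 (TMM, the trimmed mean of M-values) was 0.785 against 0.911 to 1.10. F17 was left out when the contigs were chosen.

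No file here links a contig identifier to a gene: of the 13634 genes listed for the assembly CU_Pfus_HIC, 0 carry such an identifier. No function is therefore given for any contig, no sequence is shown, and the brain label could not be checked against marker genes of brain, fat body, muscle, glands or the compound eye. Contig lengths are not used here, so levels are compared between wasps and not between contigs. Reads that match several contigs cannot be parted, and contigs with neighbouring identifiers may be pieces of 1 transcript. The 200 contigs formed 130 runs of identifiers no more than 5 apart, and 106 of them lay in 36 runs of at least 2, the longest of 7.

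Within groups the 200 contigs had SDs of 0.46 to 2.86 on the log2 scale, with a median of 0.73 against 0.16 for the other 5614 candidates. An SD over 1 was found in 54 contigs and over 2 in 4. The 3 last contigs inside the limit had SDs of 0.465 (PfusTSAr1.0-049066), 0.465 (PfusTSAr1.0-085542) and 0.463 (PfusTSAr1.0-090577). Just outside it came 0.462 (PfusTSAr1.0-101319), 0.461 (PfusTSAr1.0-064828) and 0.460 (PfusTSAr1.0-106294), without a step. Counting error gave an SD of 0.06 at the median contig and 0.15 at most, below the smallest SD of any of the 200. The wasp with the highest CPM exceeded the wasp with the lowest by a median of 8.83-fold, against 1.71-fold for the other candidates, and by over 10-fold in 91 contigs and over 4-fold in 178. Mean levels ran from 32.1 to 500.6 CPM with a median of 56.7, near the 53.6 CPM of all candidates. Together the 200 contigs took from 1.08% of all counts in FW44 to 2.99% in F25.

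F25 and FW24 carried more of the spread here than among the other candidates. F25, a foundress trained to faces, had the widest deviation from its group mean in 57 of the 200 contigs, 28.5% against 6.79% of the other candidates, and it was higher than its group in 53 of these. FW24, a worker from an allospecific nest, was widest in 14 and higher in each, 7% against 0.730%. F55 and F42 were widest in 23 and 22 contigs, 11.5% and 11%, near their shares of 11.2% and 11.4% among the other candidates, and they were lower than their group in all but 3 of these contigs, which were of F55. Summed over the 200 contigs, F25 held 20.9% of the squared deviations, against 8.01% among the other candidates. The shares of F42 and FW24 were 11.8% and 8.56%, against 9.30% and 2.48%, and that of F55 was 4.25%, against 9.13%. Foundresses trained to faces, 31.25% of the libraries, held 45.4% as a group, against 36.8% among the other candidates. Those trained to patterns held 15.0% against 23.1%, conspecific workers 15.8% against 23.2% and allospecific workers 23.7% against 16.9%. Group sizes differ and F17 is not counted, so these shares describe single wasps and not the treatments. In the median contig the widest wasp held 31.5% of the squares, against 26.1% among the other candidates, and in 17 contigs it held over 50%.

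**Figure D1:**
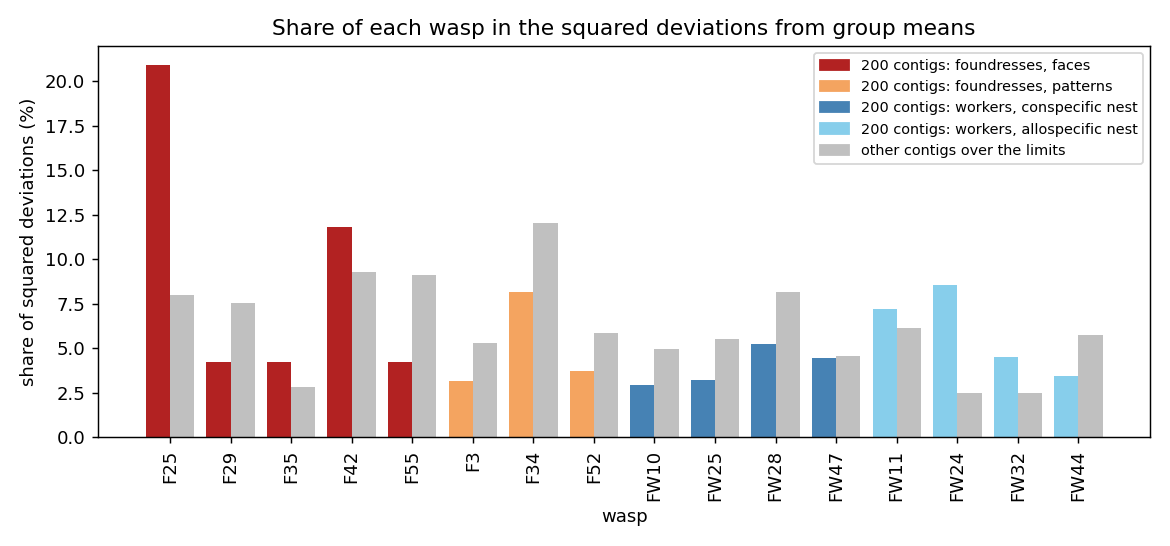
Share of each of 16 wasps in the squared deviations from group means, in percent, for the 200 contigs (coloured by group) and for the other 5614 candidates (grey). F25 holds 20.9% in the 200 contigs and 8.01% in the rest, and FW24 8.56% and 2.48%.

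Most of the 200 contigs varied in company. Clustering of their deviations over the 16 wasps, by average linkage on 1 minus Pearson's r with the tree divided at 0.3, gave 12 blocks of at least 5 contigs that held 155 contigs, numbered here by size. High correlations between contigs of a block follow from this way of forming blocks. Of the 45 contigs outside blocks, 14 stood alone and 31 were in clusters of 2 to 4. Blocks were not runs of neighbours alone: the 49 contigs of block 1 came from 29 runs, the 27 of block 2 from 13 and the 15 of block 3 from 15. Blocks 6 and 12 were 1 run each, with 7 and 5 contigs. Of the 36 runs of at least 2 contigs, 35 lay whole in 1 block or whole outside the blocks. The level of a block in a wasp is given as the mean log2(CPM + 1) of its contigs. Among the 16 wasps F25 had the highest level in 4 blocks, and F42, of the same group, the lowest in 5 and the highest in 2.

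**Figure D2:**
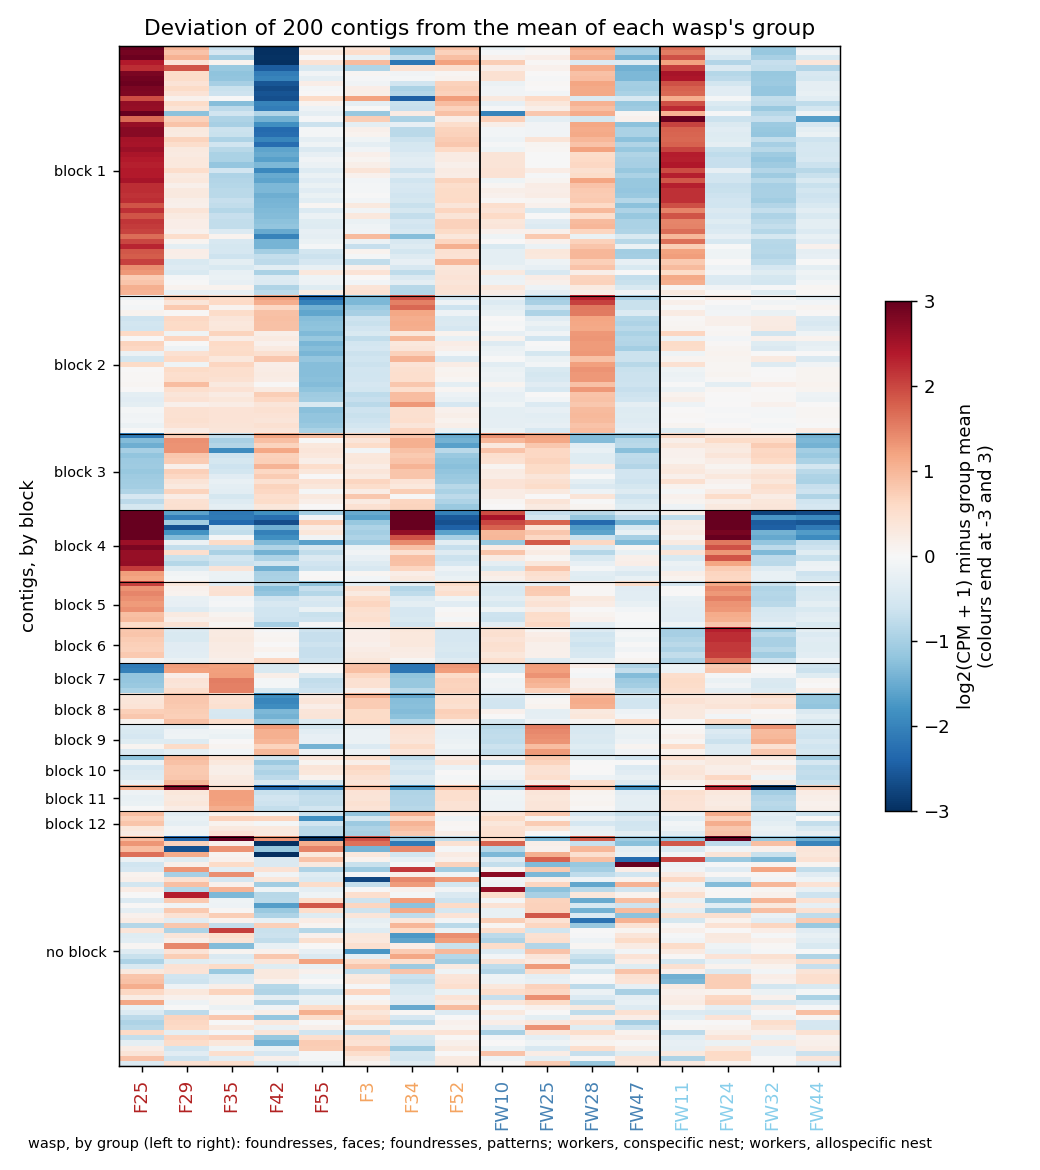
Deviation of each of the 200 contigs (rows, by block) from the mean of the wasp's group (columns: 16 wasps by group, F17 left out), as log2(CPM + 1), with colours ending at -3 and 3. F25 is higher and F42 lower over most of blocks 1 and 4, while block 3 divides the wasps of every group.

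Block 1, the largest, held 49 contigs with a median correlation of 0.91 between pairs. Its widest contig, PfusTSAr1.0-062187, stood at 297 CPM in F25, 67.3 in F29, 20 in F35, 1.73 in F42 and 37.1 in F55 in foundresses trained to faces. In foundresses trained to patterns it was 115 CPM in F3, 36.9 in F34, 167 in F52 and 30 in F17. Conspecific workers had 161 CPM in FW10, 196 in FW25, 405 in FW28 and 89.6 in FW47, and allospecific workers 226 CPM in FW11, 55.4 in FW24, 31.9 in FW32 and 60.2 in FW44. The highest wasp, FW28, and the lowest, F42, differed 234-fold, and all 4 groups overlapped. Its neighbour PfusTSAr1.0-062185, the most abundant contig of the block, followed the same order at the ends, from 22.3 CPM in F42 to 1058 CPM in F25 and 1292 CPM in FW28. As a block the level ran from 3.36 in F42 to 7.28 in F25, a 15.2-fold difference, with FW28 at 7.18 and FW11 at 7.05. The block mean was 5.06 ± 1.45 (SD, n = 5) in foundresses trained to faces and 6.44 ± 0.66 (n = 4) in conspecific workers, and it was 5.78 ± 0.53 (n = 4) with patterns and 5.38 ± 1.14 (n = 4) in allospecific workers.

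Block 4, of 14 contigs from 12 runs, had the widest range, 30.1-fold from F42 at 3.35 to F25 at 8.26. Only F25, FW24 and F34, 1 wasp in each of 3 groups, lay above its widest gap, at 6.71 or more, while the other 13 wasps used by the rule were at 5.08 or less. The contig of largest SD among the 200, PfusTSAr1.0-034910, belonged to it and stood at 671 CPM in F25, 1.28 in F29, 0.574 in F35, 0.982 in F42 and 2.45 in F55 in foundresses trained to faces. It was 1.30 CPM in F3, 75.7 in F34, 0.631 in F52 and 1.05 in F17 with patterns, 8.68 CPM in FW10, 0.541 in FW25, 0.401 in FW28 and 0.832 in FW47 in conspecific workers and 8.90 CPM in FW11, 353 in FW24, 0.303 in FW32 and 0.355 in FW44 in allospecific workers. It was thus at 8.90 CPM or less in 14 wasps, the lowest count being 5, and at 75.7 CPM or more in the other 3. PfusTSAr1.0-043221 had 852 CPM in F25, 698 CPM in FW24 and 361 CPM in F34, and 1.2 to 43.7 CPM in the other 14 wasps. PfusTSAr1.0-059948 had 357, 338 and 140.3 CPM in these 3 wasps and 1.58 to 31.4 CPM in the others. PfusTSAr1.0-021985 and PfusTSAr1.0-067284 had the same 3 wasps highest, at 479, 223 and 198 CPM and at 165, 146 and 60.2 CPM in F25, FW24 and F34. In PfusTSAr1.0-028943, F25 stood at 515 CPM, F34 at 133 and FW24 at 79.9 CPM, and the others between 0 and 13.3 CPM. A count of 0 in FW44 allows up to 0.152 CPM (3 counts), for counting error only. The most abundant contig of the block, PfusTSAr1.0-061067, was less sharply divided, with 618 CPM in F25, 496 in FW25, 376 in F34, 246 in FW24, 212 in FW28 and 32.5 to 196 CPM in the rest.

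Block 2, of 27 contigs from 13 runs, set foundresses apart from workers with 1 exception on either side. Its most abundant contig, PfusTSAr1.0-111438, stood at 323 CPM in F25, 457 in F29, 436 in F35, 369 in F42 and 131 in F55 in foundresses trained to faces and at 221 CPM in F3, 463 in F34, 343 in F52 and 211 in F17 in those trained to patterns. Workers had 149.8 CPM in FW10, 120.1 in FW25, 413 in FW28 and 107 in FW47 on conspecific nests and 165 CPM in FW11, 189.9 in FW24, 187 in FW32 and 195 in FW44 on allospecific nests. FW28 lay among the higher foundresses and F55 among the workers. The widest contig of the block, PfusTSAr1.0-030020, showed the same wasps out of place, with 268 CPM in FW28 against 24.6 to 65.9 CPM in the other 7 workers, and 38.2 CPM in F55 against 176 to 479 CPM in the other foundresses trained to faces. F34 was highest, at 754 CPM. Over the block, F34, F42, F35, F29, FW28, F25 and F52 lay at 6.70 or more and the other 9 of the 16 wasps at 6.13 or less, and the allospecific workers spanned only 5.76 to 5.90.

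Block 3 joined 15 contigs that each had a run of their own, with a median pair correlation of 0.91. PfusTSAr1.0-103176, its widest contig, stood at 9.07 CPM in F25, 71.0 in F29, 25.1 in F35, 97.7 in F42 and 79.3 in F55 in foundresses trained to faces and at 49.8 CPM in F3, 56.7 in F34, 10.5 in F52 and 10.4 in F17 in those trained to patterns. It was 94.5 CPM in FW10, 86.3 in FW25, 14.3 in FW28 and 14.9 in FW47 in conspecific workers and 108 CPM in FW11, 91.8 in FW24, 91.6 in FW32 and 25.6 in FW44 in allospecific workers. Each group held wasps at 25.6 CPM or less beside wasps at 49.8 CPM or more. Over the block 10 wasps lay at 5.69 or more and 6 at 5.13 or less, the lower being F25, F35, F52, FW28, FW47 and FW44, which come from all 4 groups and from May, June, July and August. PfusTSAr1.0-058547, the most abundant contig, was less divided, from 46.6 CPM in FW44 to 159 CPM in F3 among the 16 wasps.

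Blocks 5 to 12 were smaller and each had its own order of wasps. Block 5 was highest in FW24 and lowest in F42, at 6.92 and 4.65. PfusTSAr1.0-082298, its widest contig, stood at 97.8 CPM in F25, 83.9 in FW24 and 65.2 in F52, and at 9.44 to 38.0 CPM in the other 14 wasps. PfusTSAr1.0-106296, its most abundant, ran from 38.7 CPM in F42 to 187 CPM in FW24. Block 8 was lowest in F42 at 3.54 and was highest in F3 at 6.71. Its widest contig PfusTSAr1.0-088117 and its most abundant one PfusTSAr1.0-088116, which are neighbours, had 6.76 and 14.3 CPM in F42 and 129.6 and 208 CPM in F3. FW44 was next to F42 with 10.1 and 19.5 CPM. Block 10 was also lowest in F42 and highest in F3, at 4.89 and 6.70. Its contig PfusTSAr1.0-106519 ran from 29.4 CPM in F25 to 136 CPM in F29, and PfusTSAr1.0-051437 from 75.5 CPM in F42 to 293 CPM in F3.

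Among the 16 wasps used by the rule F42 was highest in block 9, whose 6 contigs from 5 runs had a median pair correlation of 0.98. PfusTSAr1.0-043232 stood at 265 CPM in F25, 282 in F29, 355 in F35, 842 in F42 and 250.3 in F55 in foundresses trained to faces and at 190.1 CPM in F3, 322 in F34, 200 in F52 and 835 in F17 in those trained to patterns. In workers it was 96.6 CPM in FW10, 493 in FW25, 123 in FW28 and 154 in FW47 on conspecific and 264 CPM in FW11, 153 in FW24, 667 in FW32 and 182 in FW44 on allospecific nests. F42, F17, FW32 and FW25, 1 wasp of each group, had 493 CPM or more and the other 13 had 355 CPM or less. PfusTSAr1.0-056053, the most abundant contig, had the same 4 wasps highest, at 639.9 to 879.6 CPM against 162 to 443 CPM. Block 11, of 5 contigs from 2 runs, had a median pair correlation of 0.99. Its level over the same 16 wasps ran from 4.84 in FW32 to 7.48 in FW25. Its widest and most abundant contig, PfusTSAr1.0-088639, had an SD of 1.78 against a block median of 0.57. This contig ran from 8.92 CPM in FW32 to 641 CPM in F29, with 608 CPM in F52, 573 in F3, 428 in FW25, 388 in FW24 and 122 in F17. Block 12 was 5 neighbours with F25 highest at 7.73 and FW44 lowest at 5.56. In its contigs PfusTSAr1.0-055994 and PfusTSAr1.0-055992 F25 had 440.5 and 601 CPM, F34 359 and 501 CPM, and FW44 67.3 and 87.2 CPM.

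**Figure D3:**
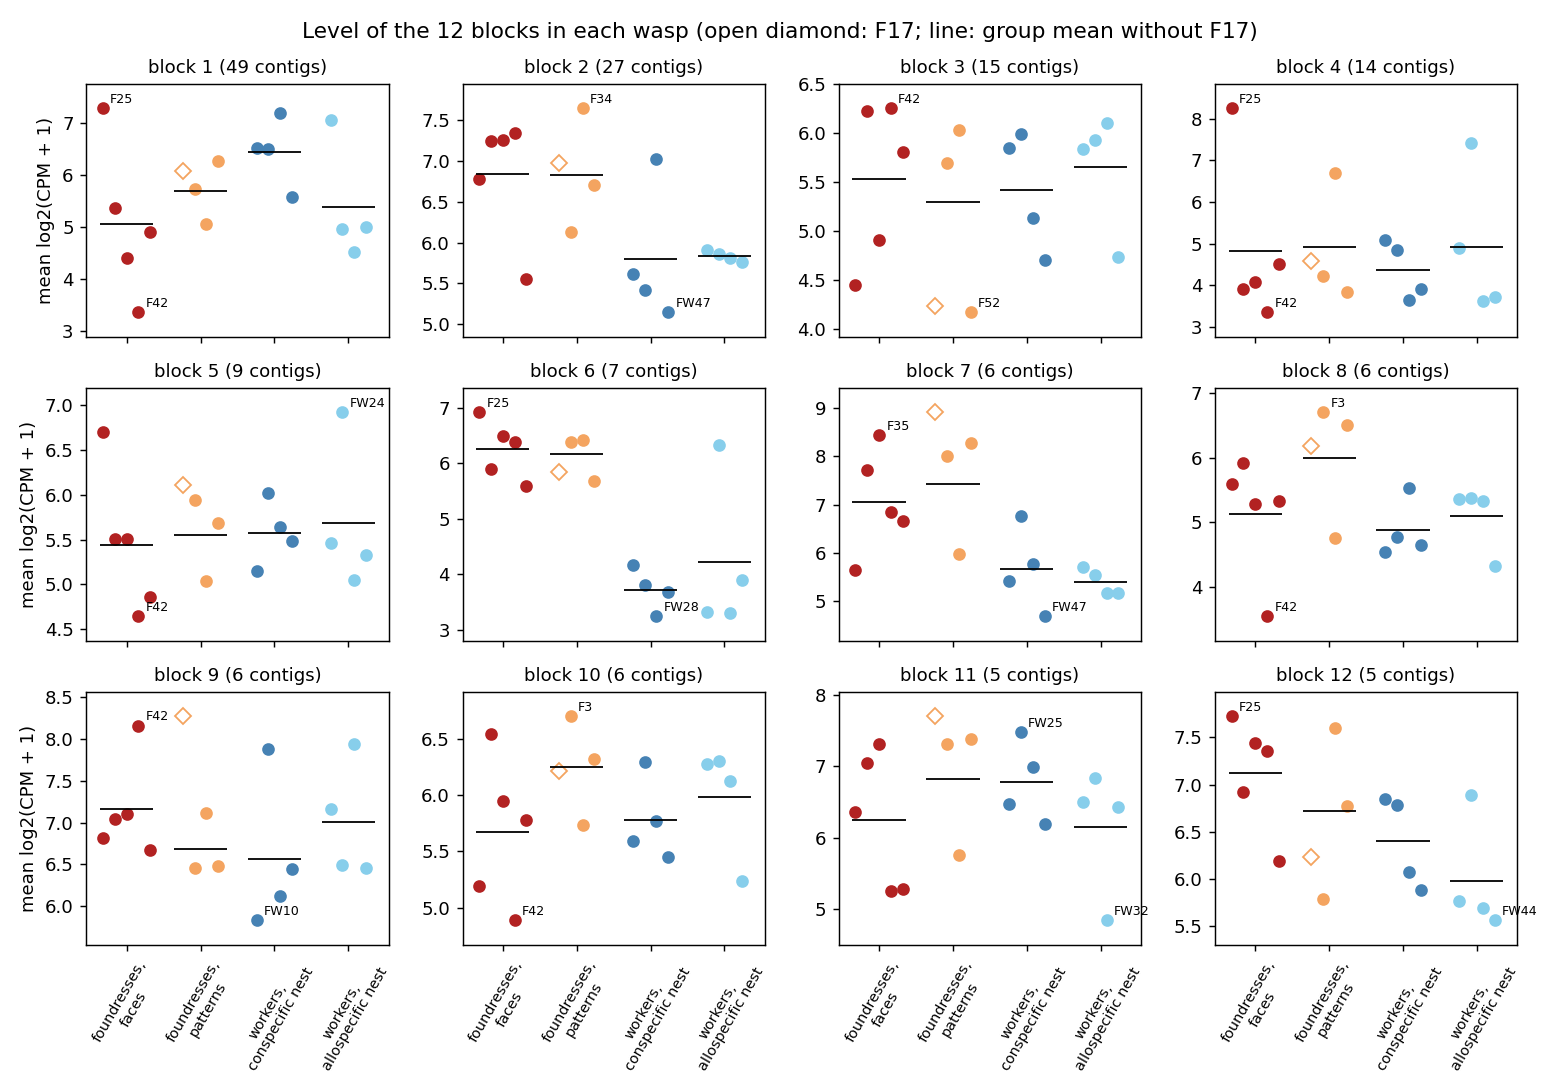
Level of each of 12 blocks (mean log2(CPM + 1) of its contigs) in every wasp by group, with lines for the group means without F17 and open diamonds for F17. Block 4 runs from 3.35 to 8.26 with 3 wasps above the rest, and in block 6 all workers but FW24 lie below the foundresses.

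Of the 17 contigs in which 1 wasp held over 50% of the squares, 10 were among the 45 outside blocks, 6 were in block 6 and 1 in block 4, and that wasp was higher than its group in 12. PfusTSAr1.0-113312 stood at 342 CPM in FW47 and at 7.87 to 30.6 CPM in all other wasps. PfusTSAr1.0-102353 was 206 CPM in F3, 152 in F35, 57.8 in FW24 and 42.9 in F42, and 0.456 CPM in FW44, with 1.05 CPM in F55 and 0.750 to 1.33 CPM in FW11, FW25, FW32 and FW47. PfusTSAr1.0-045308 ranged from 13.1 CPM in FW47 to 657 CPM in F25 without a gap of 1 wasp. 3 neighbours, chosen after their values were seen, differed in the wasp that was high. PfusTSAr1.0-112709 and PfusTSAr1.0-112711 had 258.5 and 275.4 CPM in FW10, with 58.2 and 79.0 CPM in F35 and 14.3 to 33.6 CPM in every other wasp. PfusTSAr1.0-112710, which lies between them by identifier, had 217.3 CPM in F35 and 69.3 CPM in FW10. These neighbours therefore did not vary as 1 unit.

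Contigs too low to be candidates also followed the blocks. Among 36390 contigs with a mean of 2 to 32 CPM, 480 had deviations that correlated at 0.9 or more with the level of block 3, and only 1 of these had an identifier within 5 of a member. For block 1 the number was 142, with 26 near a member, for block 2 it was 42, and for blocks 4 and 5 it was 17 and 13. Block 2 also had 67 contigs with a correlation of -0.9 or less, against 5 for block 3 and 0 for block 1. Of the low contigs 0 followed blocks 6 and 12 at this correlation, although 3 ran opposite to block 12. These are descriptions over 16 wasps that share library, scaling and depth, and they carry no p.

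F17 had no part in choosing the contigs, so its values show how far the same contigs move in a 17th brain. F17 was over 2-fold from the mean of the other 3 foundresses trained to patterns in 88 of the 200 contigs, 44%, where the share over all candidates was 27.4%. It was higher in 51 of these and lower in 37, while among the other 5614 candidates it was higher in 311 and lower in 1192. Each of the other 16 wasps, set against its own group in the same way, was over 2-fold away in 13.5 to 53.5% of the 200, but these wasps chose the contigs. F17 lay inside the range of the other 16 wasps in 151 of the 200 contigs, 75.5%, and in 36.9% of the other candidates, whose ranges are narrower. Where it lay outside, it was above in 32 and below in 17.

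By block, F17 was lower than the mean of its group in all 15 contigs of block 3, by a median of -1.09 on the log2 scale, and its level of 4.24 was the 16th of 17. In PfusTSAr1.0-103176 it had 10.4 CPM beside 10.5 CPM in F52 and 49.8 and 56.7 CPM in F3 and F34. It was higher in 6 of 6 contigs of block 7 and in 6 of 6 of block 9, with medians of 1.5 and 1.61. F17 had the highest level of all wasps in blocks 7, 9 and 11, although 1 contig of block 11 was lower and 4 higher. In blocks 1, 2 and 8 its contigs lay on both sides of the mean, 30, 16 and 3 of them higher. F17 stands apart over all candidates, and the part of this in its block values was not tested.

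Between the 2 foundress groups no difference passed the test in the 200 contigs. With edgeR's quasi-likelihood F-test and Benjamini-Hochberg adjustment over 61002 contigs, 0 of the 200 passed a false discovery rate (FDR) of 0.05, and 0% of all contigs did. At an unadjusted p under 0.05 there were 10 of the 200, 5%, against 7.14% of all contigs tested and 8.53% of the candidates, and DESeq2 and limma-voom also called 0. The spread that chose these contigs limits the test: log2 fold changes had a median standard error (SE) of 0.50, against 0.17 over the candidates, and the median change was -0.23, against -0.03 over all contigs. The smallest p belonged to PfusTSAr1.0-112970, which stood at 59.4 CPM in F25, 165 in F29, 181 in F35, 45.7 in F42 and 147 in F55 with faces and at 228 CPM in F3, 112 in F34, 156 in F52 and 509.6 in F17 with patterns. The groups overlapped, F17 was highest, and the log2 fold change of -1.24 (SE 0.43) did not pass (adjusted p = 0.676 in edgeR, 0.136 to 0.841 over its alternatives). Without F17 the log2 fold change was -0.45.

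Between workers from conspecific and allospecific nests no difference passed either. EdgeR's test called 0 of the 200, against 7 of all contigs, 0.0115%, and 1 of the candidates, 0.0172%. An unadjusted p under 0.05 was found in 10 of the 200, 5%, against 2.65% of all contigs and 1.08% of the candidates, and DESeq2 and limma-voom called 0. The median log2 fold change was 0.09 with a median SE of 0.53, against 0.00 and, for the SE over the candidates, 0.18. The smallest p belonged to PfusTSAr1.0-113312, described above, at 2.43 (SE 0.76, adjusted p = 1 in edgeR's quasi-likelihood test, 0.0833 to 1 over its alternatives). That value rested on FW47, and without this wasp the log2 fold change was 0.00327.

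In 12 of the 200 contigs foundresses differed from workers, in a comparison of the 13 wasps whose stimulus was faces. In foundresses 11 contigs were higher and 1 was lower. They came from 2 blocks, 7 from block 6 and 3 from block 7, and from 2 contigs outside the blocks. Some of these 12 met the limit of 32 CPM only through the caste in which they were higher, as given below. EdgeR's quasi-likelihood test called 6% of the 200, where 2.45% of all 61002 contigs and 4.35% of the candidates were called; higher contigs were 1.40% of all and 1.39% of the candidates, and lower ones 1.04% and 2.96%. An unadjusted p under 0.05 was found in 58 of the 200, 29%, against 17.3% of all contigs and 20.9% of the candidates. The median log2 fold change was 0.28, against 0.00 over all contigs, with a median SE of 0.42 against 0.14 over the candidates.

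Block 6 was higher in foundresses trained to faces than in every worker but FW24. PfusTSAr1.0-050992 stood at 120.1 CPM in F25, 55.1 in F29, 80.7 in F35, 68.2 in F42 and 42.4 in F55 in foundresses trained to faces. The foundresses trained to patterns, outside this contrast, had 77.2 CPM in F3, 74.4 in F34, 44.6 in F52 and 62.6 in F17. Workers had 13.8 CPM in FW10, 12 in FW25, 7.42 in FW28 and 10.8 in FW47 on conspecific nests and 9.0 CPM in FW11, 69.5 in FW24, 7.10 in FW32 and 12.4 in FW44 on allospecific nests. FW24 lay within the range of the foundresses, and the other 7 workers lay below all of them. The means were 73.3 ± 29.8 CPM (SD, n = 5) in foundresses trained to faces, 64.7 ± 14.8 CPM (n = 4) with patterns and 17.7 ± 21.0 CPM (n = 8) in workers. The log2 fold change was 2.24 (SE 0.43, adjusted p = 0.0111 in edgeR's quasi-likelihood test, 1.2e-05 to 0.0682 over its alternatives). Its neighbour PfusTSAr1.0-050990 had 2.19 (SE 0.43, adjusted p = 0.0132 in edgeR), with 38.1 to 100.1 CPM in foundresses trained to faces, 67.4 CPM in FW24 and 6.37 to 13.6 CPM in the other workers. All 7 contigs passed, with log2 fold changes of 1.96 to 2.25, among them the widest, PfusTSAr1.0-050988, and the most abundant, PfusTSAr1.0-050994. Over the workers PfusTSAr1.0-050988, PfusTSAr1.0-050990 and PfusTSAr1.0-050992 had means of 16.8, 16.7 and 17.7 CPM. These contigs thus met the limit of 32 CPM only through the foundresses, and their place among the calls is a description. PfusTSAr1.0-050994 had a mean of 47.1 CPM over the workers, above the limit. The 7 contigs are 1 run of neighbouring identifiers and may be 1 transcript. FW24 held 55.4% of the squared deviations of the block, and without this wasp the median log2 fold change was 2.93 in place of 2.20. FW24 was seen out of place in these same values, so leaving it out favours a larger change and is no support for one.

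Block 7 was higher in foundresses in 3 of its 6 contigs, and the median log2 fold change of the 6 was 1.84. PfusTSAr1.0-048079 stood at 155 CPM in F25, 455 in F29, 1009 in F35, 330.0 in F42 and 208 in F55 in foundresses trained to faces and at 625 CPM in F3, 209 in F34, 737 in F52 and 1740.1 in F17 in those trained to patterns. It was 118 CPM in FW10, 269 in FW25, 142 in FW28 and 59.3 in FW47 in conspecific workers and 116 CPM in FW11, 67.3 in FW24, 57.4 in FW32 and 81.7 in FW44 in allospecific workers. F35 and F17 were highest in their groups, and F25, at 155 CPM, lay below FW25. Its log2 fold change was 2.08 (adjusted p = 0.0330 in edgeR's quasi-likelihood test). Without F35, with a median of 1.41 for the block, 0 of the 6 passed, and without F42 also 0. PfusTSAr1.0-061830, the widest contig of the block, had 14.2 to 154 CPM in foundresses trained to faces and 11.4 to 56.0 CPM in workers, and was not among those called.

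Among contigs outside the blocks 1 was lower and 1 higher in foundresses. PfusTSAr1.0-052506 stood at 2.05 CPM in F25, 1.67 in F29, 2.81 in F35, 1.56 in F42 and 5.24 in F55 in foundresses trained to faces and at 2.34 CPM in F3, 1.61 in F34, 2.40 in F52 and 21.8 in F17 in those trained to patterns. It was 88.9 CPM in FW10, 411 in FW25, 224 in FW28 and 23.7 in FW47 in conspecific workers and 72.5 CPM in FW11, 7.33 in FW24, 6.31 in FW32 and 23.4 in FW44 in allospecific workers. Every worker lay above every foundress trained to faces, and among the foundresses F17 alone reached the level of workers. Its mean of 54.8 CPM over the 16 wasps passed the limit of 32 CPM only through the workers. The lack of overlap is thus a description, and the share of all contigs without overlap is not given here. The means were 2.67 ± 1.52 CPM (SD, n = 5) in foundresses trained to faces and 107 ± 142 CPM (n = 8) in workers, from 6.31 to 411 CPM. The log2 fold change was -4.71 (SE 0.92, adjusted p = 0.0126 in edgeR's quasi-likelihood test, 2.4e-06 to 0.0518 over its alternatives), and without F42 it did not pass. PfusTSAr1.0-087111, named because it was the remaining call, had 15.0 to 107 CPM in foundresses trained to faces, 27.6 to 99 CPM with patterns and 6.13 to 31.8 CPM in workers, with a log2 fold change of 1.56 (SE 0.40, adjusted p = 0.0454 in edgeR). Its mean over the 16 wasps was 32.1 CPM, and over the workers 17.5 CPM. It thus met the limit of 32 CPM only through the foundresses, and its place among the calls is a description.

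Block 2, in which foundresses and workers also stood apart, had 0 of 27 contigs past the FDR in edgeR, with a median log2 fold change of 1.10 and adjusted p of 0.0530 to 0.450. This depended on single wasps: 24 passed without FW28, 15 without F55, 13 without F17 and 26 without all 3, when the median was 1.55. FW28 and F55 were the wasps seen out of place in these same values, so leaving them out favours a call. These counts are therefore no support for a difference in block 2. Over the 200 contigs the count of 12 became 36 without FW28, 29 without F55, 32 without F17 and 4 without F42. Calls over all contigs tested moved in the same direction. From 1493 they went to 2341 without FW28, 1738 without F55, 6121 without F17 and 394 without F42. Without FW28, F55 and F17 together they were 7725. With collection month as a covariate 1 of the 200 contigs passed, PfusTSAr1.0-052506, and 445 of all contigs. That fit sets foundresses of May against workers of July and does not adjust for the season of the castes.

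**Figure D4:**
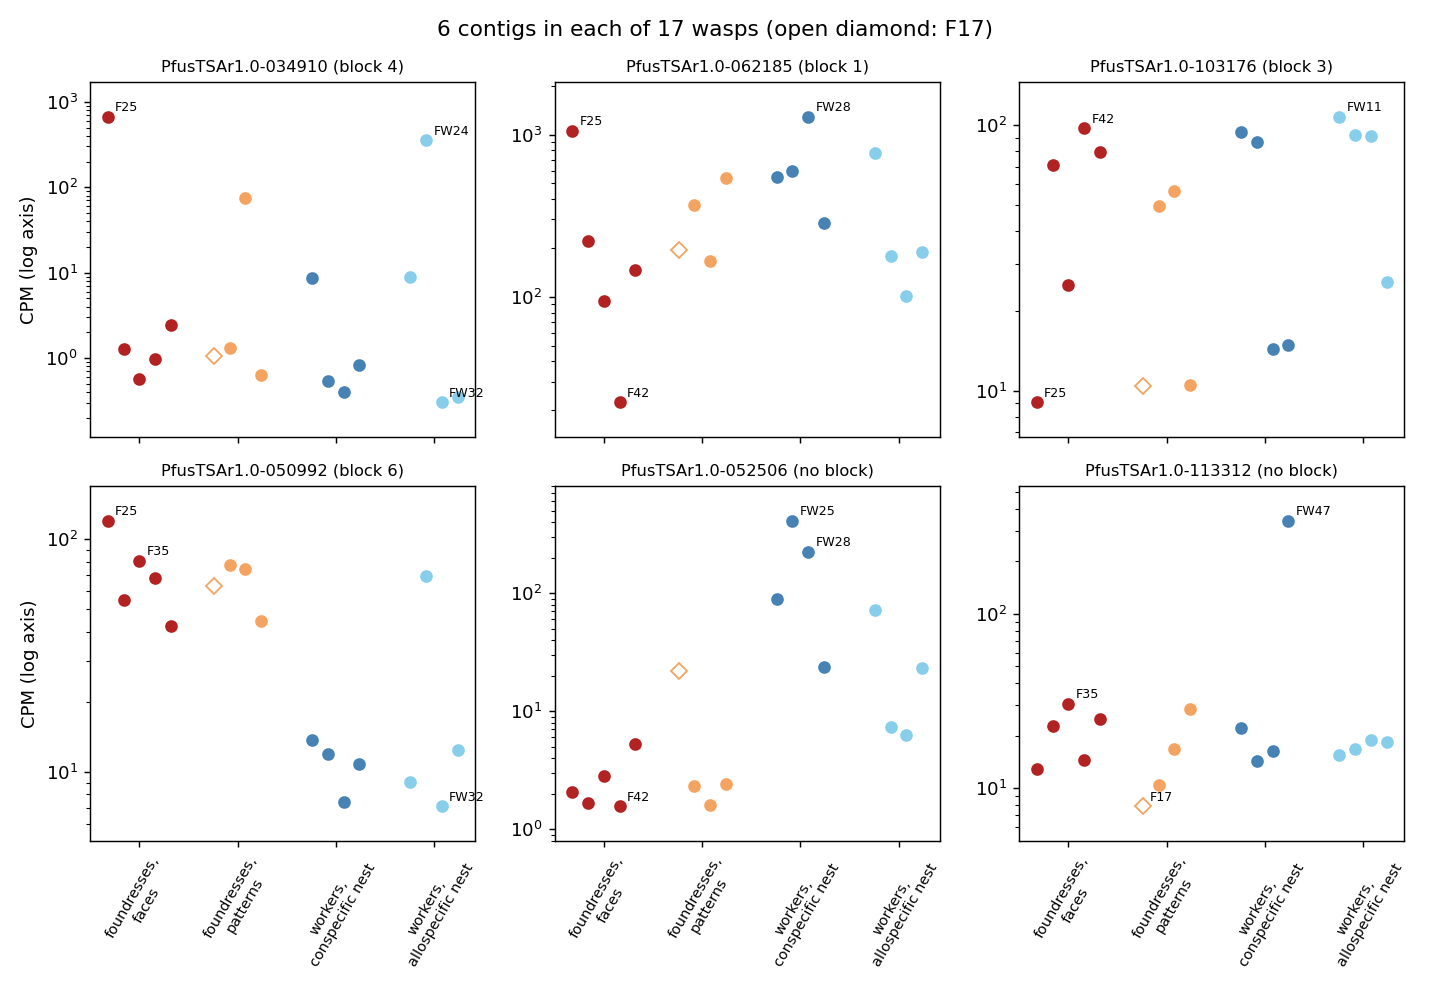
CPM on a log axis of 6 contigs in each of 17 wasps by group, 1 point per wasp and an open diamond for F17. The foundresses trained to faces lie at 1.56 to 5.24 CPM of PfusTSAr1.0-052506, below all workers, and FW24 at 69.5 CPM lies with the foundresses in PfusTSAr1.0-050992.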

How the data were processed

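RNA of 17 single brains was measured, 1 library per wasp. Per the labels' protocols, an RNeasy kit gave total RNA and a TruSeq kit the libraries. The authors deposited 1 table of whole-number read counts for 157691 contigs, not normalized as far as the values show, with 7.69 to 20.4 M counts per library. Trimmomatic 0.32, Bowtie2 and eXpress are named in the submitters' processing notes, without roles or settings; how reads matching several contigs were counted is not given in the sources used here.

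From these counts CPM on library totals were computed with pandas 2.3.3 in Python 3.11.15, and the 200 contigs were chosen by the rule in the opening. The members, lists and tests were chosen with earlier results of these data known. Contrasts were fitted in R 4.3.3 with edgeR 4.0.16 to all 17 libraries with 1 mean per group, edgeR's expression filter by group (61002 contigs kept, all 200 among them), TMM scaling and two-sided quasi-likelihood F-tests, adjusted by Benjamini-Hochberg over all contigs tested at an FDR of 0.05. CPM in the text are on library totals, and log2 fold changes are those of the fit. Each SE was computed back from the test, as the absolute log2 fold change divided by the square root of its F statistic. Each wasp is a separate animal, and p-values set the difference between groups against the spread between wasps, estimated over all 17 libraries. Whether wasps shared a colony of birth is not known.

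Contigs are named by this rule: the 10 of largest SD, the widest and the most abundant of each block, 3 on each side of the limit, and for each contrast the 2 higher and 2 lower with the smallest p past the FDR, or with none the 1 of smallest p. Others are said to be named after their values were seen. Alternatives were DESeq2 1.42.0 size factors and its Wald test, limma-voom (limma 3.58.1), other filters, wasps left out, collection month as a covariate and, for the choice of contigs and the blocks, other scalings, pseudocounts, limits, heights and correlations. Leaving out F17 with FW24 was added after the data were seen. The scripts were tested on simulated data.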

Additional observations from a re-analysis of the deposited data

Results flagged for a closer look

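Single wasps far from the others of their group are listed where the gap to the nearest wasp, over the range of the group, passed Dixon's 95% value. This was so in 54 of 204 sets of values, each the CPM of a named contig or the level of a block in 1 group. Chance marks about 1 in 20 sets of values that were not chosen for their spread. These contigs were chosen for it, so the ratio serves here to list wasps and is no test, and nothing is read from the number of sets. Values are CPM, with the range of the others of the group after each, and log2 levels for blocks.

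Among foundresses trained to faces F25 stood above the other 4 wasps in 10 contigs and 1 block. In block 4 it had 671 CPM of PfusTSAr1.0-034910 (others 0.574 to 2.45), 515 of PfusTSAr1.0-028943 (0.173 to 4.25) and 852 of PfusTSAr1.0-043221 (2.31 to 33.8). It had 357 of PfusTSAr1.0-059948 (1.62 to 17.7), 479 of PfusTSAr1.0-021985 (5.43 to 32.4), 165 of PfusTSAr1.0-067284 (3.64 to 15.0) and 618 of PfusTSAr1.0-061067 (32.5 to 153), and the block level was 8.26 (3.35 to 4.50). In block 1 it had 297 CPM of PfusTSAr1.0-062187 (1.73 to 67.3) and 1058 of PfusTSAr1.0-062185 (22.3 to 221), and in block 5 it had 97.8 of PfusTSAr1.0-082298 (9.44 to 29). F42 was above the others in block 9, at 8.16 (6.67 to 7.10), with 842 CPM of PfusTSAr1.0-043232 (250.3 to 355) and 839 of PfusTSAr1.0-056053 (318 to 402), and below them in block 8, at 3.54 (5.28 to 5.92). F35 had 152 CPM of PfusTSAr1.0-102353 (1.05 to 42.9) and F29 had 107 of PfusTSAr1.0-087111 (15.0 to 40.1).

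Among foundresses trained to patterns F34 stood highest in contigs of block 4, with 75.7 CPM of PfusTSAr1.0-034910 (0.631 to 1.30), 133 of PfusTSAr1.0-028943 (0.316 to 1.43), 361 of PfusTSAr1.0-043221 (3.34 to 11.2), 140.3 of PfusTSAr1.0-059948 (1.58 to 6.24) and 198 of PfusTSAr1.0-021985 (9.65 to 15.5). In block 2 it had 754 CPM of PfusTSAr1.0-030020 (78.8 to 148). F3 had 206 CPM of PfusTSAr1.0-102353 (22.8 to 31.8), F52 had 65.2 of PfusTSAr1.0-082298 (35.6 to 36.5) and F17 had 21.8 of PfusTSAr1.0-052506 (1.61 to 2.40).

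Among conspecific workers FW28 was highest in 5 contigs: 268 CPM of PfusTSAr1.0-030020 (24.6 to 43.2), 413 of PfusTSAr1.0-111438 (107 to 149.8), 37.5 of PfusTSAr1.0-088117 (12.3 to 16.4), 292 of PfusTSAr1.0-049066 (126 to 136) and 58.5 of PfusTSAr1.0-090577 (21.7 to 26.6). FW25 had 493 CPM of PfusTSAr1.0-043232 (96.6 to 154) and 249 of PfusTSAr1.0-051437 (149 to 160.1). FW10 had 8.68 CPM of PfusTSAr1.0-034910 (0.401 to 0.832) and 13.3 of PfusTSAr1.0-028943 (0.150 to 0.782), and FW47 had 342 of PfusTSAr1.0-113312 (14.3 to 22.1).

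Among allospecific workers FW24 was highest in 12 contigs and 1 block. In block 4 it had 353 CPM of PfusTSAr1.0-034910 (0.303 to 8.90), 79.9 of PfusTSAr1.0-028943 (0 to 1.23), 698 of PfusTSAr1.0-043221 (3.14 to 28.2), 338 of PfusTSAr1.0-059948 (2.0 to 17.8), 223 of PfusTSAr1.0-021985 (8.77 to 35.6) and 146 of PfusTSAr1.0-067284 (2.89 to 14.2). In block 6 it had 70.1 CPM of PfusTSAr1.0-050988 (5.77 to 10.4), 149.9 of PfusTSAr1.0-050994 (24.4 to 44.1), 69.5 of PfusTSAr1.0-050992 (7.10 to 12.4) and 67.4 of PfusTSAr1.0-050990 (7.40 to 11.3). It also had 57.8 CPM of PfusTSAr1.0-102353 (0.456 to 0.910) and 228 of PfusTSAr1.0-055994 (67.3 to 94.1), and a level of 6.89 in block 12 (5.56 to 5.76). FW11 had 226 CPM of PfusTSAr1.0-062187 (31.9 to 60.2) and 776 of PfusTSAr1.0-062185 (101 to 189). FW44 was lowest in PfusTSAr1.0-088116, at 19.5 CPM (56.9 to 63.3), in block 8, at 4.32 (5.32 to 5.37), and in block 10, at 5.24 (6.13 to 6.30).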

How the results depend on the processing

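Between foundresses trained to faces and workers, 12 of the 200 contigs passed the FDR. The count was 28 (27 higher, 1 lower) with DESeq2's Wald test, 41 (40 and 1) without a filter and 32 (28 and 4) with F17 left out. It was 42 (41 and 1) with F17, FW28 and F55 left out, and 1 with month as a covariate. With F17 and FW24 left out, a setting added after the data were seen, it was 29 (27 and 2). Leaving out each wasp in turn gave 4 to 36 of the 200. Calls over all contigs also moved from 1493. They were 3232 with DESeq2's Wald test, 2016 without a filter and 6121 without F17. They were 7725 without F17, FW28 and F55, 4335 without F17 and FW24 and 445 with month. The 12 were all among the calls under the settings other than month that are given here by their count, and 4 of them without F42. Other settings lost some too: limma-voom called 9, all among the 12, and 8 of the 12 were kept without F35. The causes were not tested. The training and nest contrasts gave 0 under each of 26 alternatives, in which the fit without F17 is counted again among the wasps left out in turn. DESeq2 kept an adjusted p for only 106 of the 200 contigs in the training contrast. Fold changes were recomputed for 5 contigs, PfusTSAr1.0-050990, PfusTSAr1.0-050992, PfusTSAr1.0-052506, PfusTSAr1.0-112970 and PfusTSAr1.0-113312, and none of them changed direction. No paired analysis was possible because the labels pair no wasps across groups.

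With a mean of 16 CPM or more 120 of the 200 contigs were kept by the rule, and with 64 CPM or more 83, since these limits change the pool. With F17 included 137 were kept, and with the median absolute residual in place of the SD 139. Leaving out each of 16 wasps kept 178 to 196. The blocks numbered 10 to 12 over their alternatives and held 130 to 168 contigs, and the share of contigs with F17 over 2-fold away was 41 to 44.5%. The lowest count over the 16 libraries was under 100 in 26 of the 200 contigs, and in 8 of the 10 of largest SD, so the low ends of the widest folds rest on few counts.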
